A study of Mus musculus with 56 samples.

Results

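Along the nephron, sodium is taken back from the filtrate by a different apical carrier in each segment, and 3 of them are described here at the mRNA level together with the kinases and the ubiquitin ligase that act on them. The sodium-proton exchanger NHE3 (Slc9a3) works in the proximal tubule and in part of the thick ascending limb, NKCC2 (Slc12a1) is the sodium-potassium-chloride cotransporter of the thick ascending limb and the target of loop diuretics, and NCC (Slc12a3) is the thiazide-sensitive sodium-chloride cotransporter of the distal convoluted tubule. The kinases WNK1 and WNK4 phosphorylate SPAK (Stk39) and OSR1 (Oxsr1), which in turn phosphorylate and activate NKCC2 and NCC. The adaptor KLHL3 and the scaffold CUL3 form an E3 ubiquitin ligase that marks WNK kinases for degradation, and mutations in WNK1, WNK4, KLHL3 or CUL3 cause familial hyperkalaemic hypertension. Much of this control is exerted on phosphorylation and on the amount of protein at the membrane, neither of which was measured. The 9 genes were chosen by name from the 17027 genes of the kidney table. The rule used none of their values but was set with earlier results of these data known. All 9 genes were recovered as whole reads and passed the filter on low values.

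Kidneys came from female C57BL/6J mice, 9 weeks old, kept under 12 h of light and 12 h of darkness. For 7 days before collection all mice had food for part of the day, either by day (daytime-restricted feeding, DRF) or by night (nighttime-restricted feeding, NRF, the reference), so no group fed ad libitum at collection. Mice were sampled 0, 4, 8, 12, 16, 20 and 24 h after lights on (zeitgeber time, ZT), with 4 mice per regimen and time, which made 14 groups and 56 libraries of poly(A) RNA. The labels give no collection batch, and nothing in them says that a group's libraries were handled apart from one another, so p-values measure the spread between these samples.

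Levels are given in TPM, reads per base of exon scaled to the same total in each library, rebuilt from reads recovered out of the deposited table, and differences as log2(TPM + 1) with standard errors (SE). Tests were made with limma on 12238 genes, with Benjamini-Hochberg adjusted p over all of them and a threshold of 0.05. Recovered genes held 21.6 to 24.2 M reads per library, and the members held between 411 reads (the lowest Klhl3 value) and 80509 reads (the highest Slc12a1 value) in a library. Whole-kidney RNA mixes all segments, so fewer cells of a segment and less RNA per cell cannot be told apart. The segments' own markers were present in every library: 7 recovered proximal tubule markers summed to between 7745 and 12029 TPM, 7 thick ascending limb markers to between 4628 and 10582 TPM, and 4 distal convoluted tubule markers to between 457 and 1752 TPM. Collecting duct and inner medulla markers (7 genes) ranged from 857 to 2660 TPM and podocyte markers (3 genes) from 261 to 541 TPM. Among markers of other tissues, the 5 adipose genes reached 1320 TPM in NRF ZT12 replicate 1 against a median of 50.0 TPM under NRF and 54.97 TPM under DRF, the 3 recovered liver genes lay between 80.1 and 498 TPM, the 4 immune genes between 473 and 1984 TPM, and 1 recovered blood gene, Alas2, between 4.59 and 47.1 TPM. Of the adrenal list, Cyp11a1 averaged 0.122 TPM, and Star was the most abundant at a mean of 5.53 TPM.

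On this length-corrected scale the members differed in level by 2 orders of magnitude in the mean over all libraries. Slc12a1 was the most abundant at 1167 TPM, followed by Slc12a3 at 318 TPM and Wnk4 at 241 TPM. Cul3 averaged 135 TPM, Wnk1 115 TPM and Slc9a3 100.2 TPM. The effector kinases Stk39 and Oxsr1 averaged 46.2 and 41.5 TPM, and Klhl3 was lowest at 11.2 TPM. The WNK1 gene makes a full-length and a kidney-specific transcript, and the gene-level values add them together. Exons of 1 annotated antisense gene, Gm11615, cover 7.38% of the Wnk4 exon bases, and reads from it cannot be told apart from Wnk4 reads because the use of strand in counting is not given in the sources used here. No other member shared exon bases with another annotated gene.

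Slc9a3 was the member with a daily rhythm under both regimens, and its peak under DRF came within 1 SE of its peak under NRF. Its group mean was highest at ZT8 under NRF and ZT12 under DRF and lowest at ZT20 in both, whether the mice ate by day or by night. The gene lies on mouse chromosome 13 at 74121457 to 74169442, plus strand (GRCm38, GENCODE M21). The 250 bases before its RefSeq start (GRCm38.p6, chr13:74121163-74121412, plus strand) are shown because they hold the E-box CACGTG, the letters bound by the clock activators BMAL1 and CLOCK, here in capitals:

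Slc9a3 upstream: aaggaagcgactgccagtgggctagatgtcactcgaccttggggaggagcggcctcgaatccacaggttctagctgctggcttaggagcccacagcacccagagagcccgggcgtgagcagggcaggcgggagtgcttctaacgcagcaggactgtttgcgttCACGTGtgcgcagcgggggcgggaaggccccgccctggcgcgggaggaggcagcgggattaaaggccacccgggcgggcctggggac

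The match begins 87 bases upstream of the start. The same 6 letters, which read alike on both strands, occur in 6.02% of the 32851 windows of this length, and of the 9 members Slc9a3 was the one whose window held them. The D-box TTATGNAA (3.07% of windows), the half-site TGTTCT of glucocorticoid and mineralocorticoid receptors (16.08%) and the nuclear receptor half-site AGGTCA (14.02%), searched on both strands, were in none of the 9 windows. A match describes the letters of a window and is not evidence of binding.

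Under NRF, the Slc9a3 level at ZT8 was 136, 137, 133 and 142 TPM in the 4 mice and at ZT20 it was 65.4, 88.4, 87.8 and 73.9 TPM. Under DRF, it was 113, 131, 119 and 117 TPM at ZT12 and 82.3, 65.5, 71.6 and 78.6 TPM at ZT20. In both regimens every mouse of the high group lay above every mouse of the low group. These groups were picked as the highest and lowest means of the regimen, so their separation describes the values and is not a test. The group means ran from 74.5 ± 7.46 TPM (SD, n = 4) at DRF ZT20 to 137 ± 3.81 TPM (SD, n = 4) at NRF ZT8, a ratio of 1.84. When the 14 groups were put in order of their means, 1 of the 13 steps between neighbours, that below NRF ZT8, had no overlap of single mice. The shares of all genes with such separations were not computed.

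A cosine of 24 h had an amplitude of 0.33 ± 0.05 (SE) in log2 under NRF, peaking at 9.00 ± 0.56 h after lights on (limma adjusted p = 1.1e-05). Under DRF the amplitude was 0.25 ± 0.04 and the peak came at 9.20 ± 0.68 h (limma adjusted p = 0.00033). The DRF peak was thus 0.20 ± 0.88 h later, with a 95% interval from -1.53 to 1.93 h, while the feeding hours had moved by 12 h. Regimen did not change the rhythm detectably, with a difference in the cosine of 0.08 ± 0.07 in log2 (limma adjusted p = 0.62). Among the 3023 genes rhythmic under both regimens the median absolute shift was 6.12 h, and 33.2% of them shifted by at most 4 h. A shift no larger than that of Slc9a3 was found in 1.52%. The SE of the Slc9a3 shift, 0.88 h, was larger than the shift itself, so its place among these genes is not exact. For reference, the clock gene Arntl peaked 2.05 ± 0.28 h earlier under DRF and Per2 3.34 ± 0.44 h earlier. Per1 had a shift of -0.89 ± 1.55 h, and its DRF cosine did not pass the test (limma adjusted p = 0.065).

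**Figure D1:**
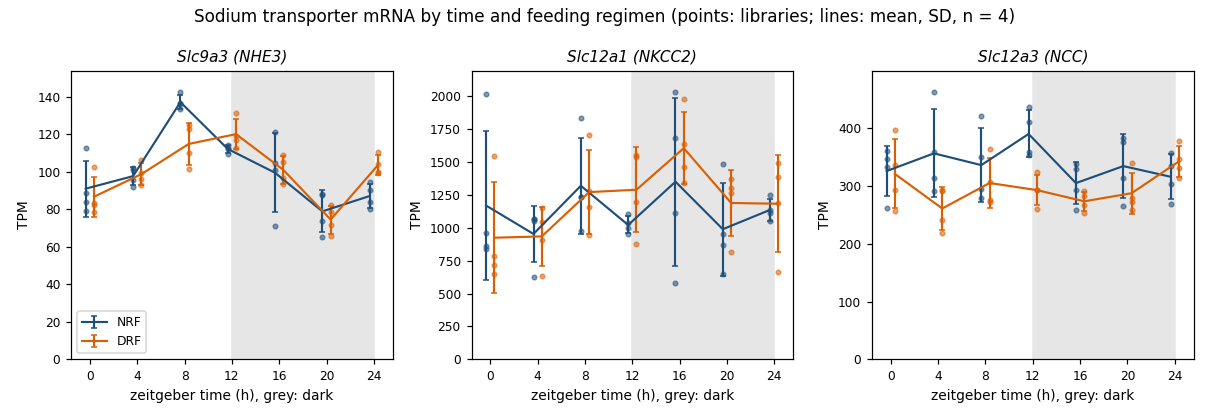
TPM (vertical axis, from 0) of Slc9a3, Slc12a1 and Slc12a3 against zeitgeber time in hours. Points are libraries, lines join group means with SD bars (n = 4), NRF is blue, DRF is orange and grey marks the dark. Slc9a3 falls to 78.9 TPM under NRF and 74.5 TPM under DRF at ZT20, Slc12a1 scatters most within groups, and DRF Slc12a3 lies lowest at ZT4.

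With a threshold of 0.05, 53% of all genes tested had a 24-h rhythm under NRF, and of the 9 members Slc9a3 was the 1 that did. Under DRF, 36.4% of all genes and 3 of the 9 members passed, namely Slc9a3, Slc12a1 and Stk39. A rhythm under both regimens was called in 24.7% of genes and in 1 member. The median amplitude of the members was 0.09 under NRF, where that of all genes was 0.13, and 0.11 under DRF, where that of all genes was also 0.11. A differential rhythm was called in 46.4% of all genes and in none of the 9 members. At an unadjusted p under 0.05 the count was 3 of 9 members, Stk39, Wnk1 and Klhl3, for which limma's adjusted p values were 0.053, 0.083 and 0.093, where 53.5% of all genes passed unadjusted.

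Slc12a1, the NKCC2 gene, had a rhythm called under DRF with its peak in the early dark phase, but its spread between mice was the widest of the 9 genes. At DRF ZT0 it was 716, 651, 783 and 1549 TPM, and at DRF ZT16 it was 1976, 1637, 1465 and 1344 TPM. These groups overlapped through a single mouse, DRF ZT0 replicate 4. At DRF ZT24, the same clock time as ZT0, it was 1494, 1188, 1385 and 664 TPM, and 2 of these 4 mice lay inside the ZT16 range. Under NRF the same times gave 836, 959, 861 and 2019 TPM at ZT0 and 580, 2031, 1681 and 1109 TPM at ZT16, with the ZT0 values inside the range of the ZT16 values. The DRF cosine had an amplitude of 0.33 ± 0.10 in log2 and a peak at 14.6 ± 1.23 h (limma adjusted p = 0.036). The NRF amplitude was 0.07 ± 0.11 (limma adjusted p = 0.87), and the difference between the rhythms did not pass the test (0.29 ± 0.16, limma adjusted p = 0.29), so a rhythm particular to DRF was not shown.

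The DRF call for Slc12a1 was lost when any of 11 single libraries was left out, with adjusted p from 0.052 to 0.084. These were DRF ZT0 replicates 1, 2 and 3, ZT4 replicates 2 and 3, ZT12 replicates 2 and 3, ZT16 replicates 1, 2 and 3 and ZT24 replicate 4. It was also lost when the 6 clock times were tested without a cosine (adjusted p = 0.11) and without ZT0 (0.091), ZT4 (0.088), ZT16 (0.27) or ZT20 (0.0502), and with the 12-h pair also in the model (0.0507). Within groups the coefficient of variation was 30.3% for Slc12a1, between 7.34% and 16.3% for the other members. A score of collecting duct and inner medulla markers minus proximal tubule markers moved with it: the within-group SD of Slc12a1 fell from 0.44 to 0.25 in log2 when the score entered the model, and its slope was 0.61 ± 0.06 log2 per unit of score. With the score as a covariate Slc12a1 was called rhythmic under DRF (0.26 ± 0.06, limma adjusted p = 0.0061), under NRF (0.19 ± 0.06, limma adjusted p = 0.036) and in the difference between regimens (0.29 ± 0.10, limma adjusted p = 0.034). The scores were -2.02 in NRF ZT0 replicate 4 and -1.73 in NRF ZT16 replicate 2, the libraries with the most Slc12a1, and -3.68 in NRF ZT16 replicate 1, the one with the least, within a range from -4.24 to -1.73 over all libraries. How much of the kidney piece was medulla was not measured in any other way. The score's own markers varied with time. A 24-h rhythm was called in 3 of 7 collecting duct and inner medulla markers under NRF and 4 under DRF. Among the 7 proximal tubule markers it was called in 4 under NRF and 2 under DRF (53% and 36.4% of all genes). Calls made with the score as covariate thus cannot tell tissue share apart from time or regimen.

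Stk39 encodes SPAK and had the same kind of spread. At DRF ZT0 it was 36.0, 34.4, 34.7 and 47.4 TPM and at DRF ZT16 60.01, 54.8, 46.7 and 48.4 TPM, which overlapped through DRF ZT0 replicate 4. Under NRF ZT16 the 4 mice ranged from 39.9 to 79.5 TPM, and replicate 2, the highest for Slc12a1, was also the highest here. The DRF cosine of Stk39 was called, with an amplitude of 0.18 ± 0.05 and a peak at 12.7 ± 1.15 h (limma adjusted p = 0.015), and the call held without any single library (adjusted p at most 0.028) but was lost without ZT0 (adjusted p = 0.085) or ZT16 (adjusted p = 0.068). Under NRF the amplitude was 0.13 ± 0.06 with a peak at 18.4 ± 1.60 h (limma adjusted p = 0.19). The medulla-against-proximal score lowered the within-group SD of Stk39 from 0.22 to 0.10, and with it the rhythm was called in both regimens (limma adjusted p = 0.0054 under NRF and 0.0091 under DRF). With that covariate the difference between the Stk39 rhythms was 0.09 ± 0.05 (limma adjusted p = 0.22). Without it the difference was 0.22 ± 0.08, and it passed the threshold with the 3 other scalings: median of ratios, which sets each library by its median gene (limma adjusted p = 0.013), CPM, reads over library size without length (0.0076), and the deposited log values (0.0057).

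Oxsr1, the gene of the SPAK relative OSR1, was among the steadiest members. Its group means lay between 38.5 TPM at DRF ZT8 and 45.5 TPM at NRF ZT8, a ratio of 1.18, and its 24-h amplitudes were 0.03 ± 0.03 under NRF and 0.05 ± 0.03 under DRF (limma adjusted p = 0.77 and 0.26). Cul3, the scaffold of the ligase, was as even, with group means from 127 to 142 TPM and a ratio of 1.12. Its DRF amplitude of 0.07 ± 0.02 missed the threshold (limma adjusted p = 0.060) and passed it with the other scalings. Wnk4 amplitudes were 0.04 ± 0.03 and 0.11 ± 0.04, Wnk1 amplitudes 0.12 ± 0.05 and 0.11 ± 0.04, Klhl3 amplitudes 0.10 ± 0.06 and 0.13 ± 0.05, and Slc12a3 amplitudes 0.09 ± 0.06 and 0.06 ± 0.05, under NRF and DRF respectively. None of these 8 cosines passed with TPM (limma adjusted p between 0.060 and 0.55). Under DRF, however, Wnk4 passed with each other scaling (adjusted p = 0.044 with median of ratios, 0.035 with CPM and 0.021 with the deposited values), without ZT24 (0.0033) and when the clock times were tested without a cosine (0.019). Without a cosine Klhl3 (adjusted p = 0.0015) and Wnk1 (0.039) passed as well. Klhl3 also passed without ZT4 (0.017) or ZT20 (0.045), and Wnk1 with CPM (0.049), without ZT12 (0.035) and with the score as covariate (0.019). Of the 6 kinase and ligase genes Stk39 was thus the 1 called under DRF by the cosine on TPM, and Wnk4 and Cul3 were called too with each of the other scalings.

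**Figure D2:**
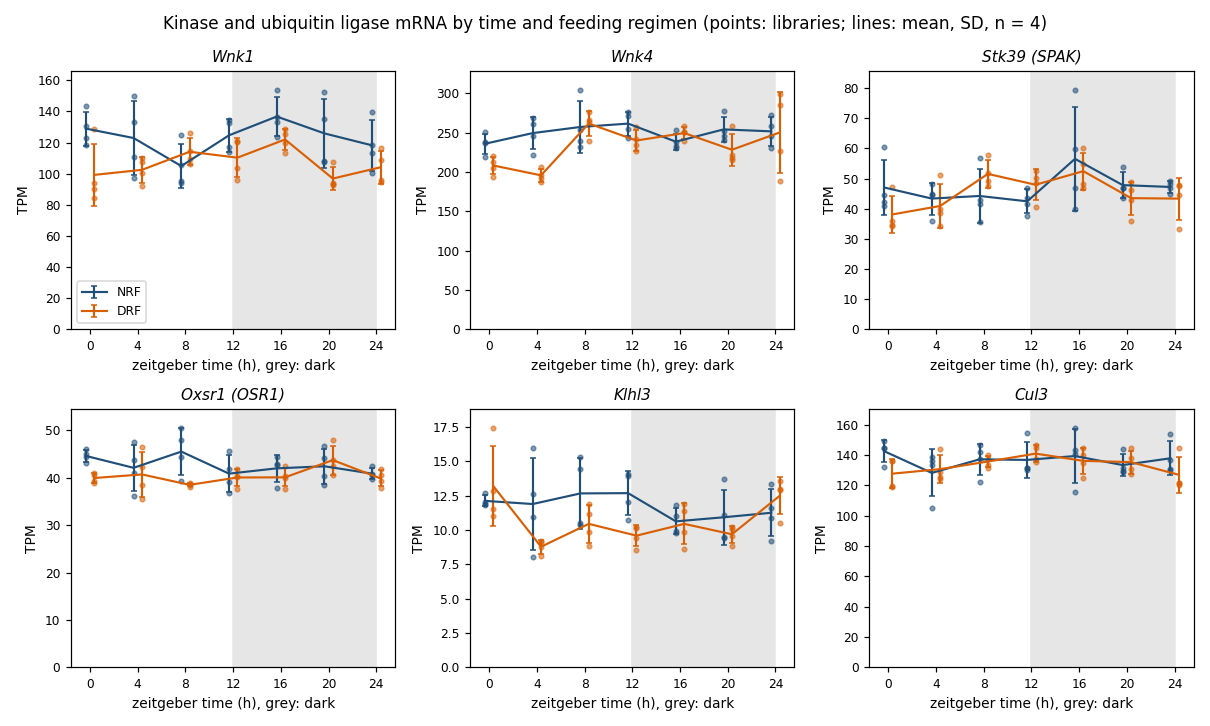
TPM (vertical axis, from 0) of Wnk1, Wnk4, Stk39, Oxsr1, Klhl3 and Cul3 against zeitgeber time in hours. Points are libraries, lines join group means with SD bars (n = 4), NRF is blue, DRF is orange and grey marks the dark. Wnk4 dips to 196 TPM at DRF ZT4, and Oxsr1 and Cul3 stay nearly flat with mean ratios of 1.18 and 1.12.

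A component of 12 h was called in 0.825% of genes and no member under NRF (at an unadjusted p under 0.05, 12.3% of genes and no member), and in 30.8% of genes and 1 member, Slc9a3, under DRF. Its amplitude for Slc9a3 was 0.13 ± 0.04 (limma adjusted p = 0.036). That call was lost without ZT24 (0.09, limma adjusted p = 0.17) and without any of 10 single DRF libraries, namely ZT0 replicate 4, ZT8 replicates 1 and 3, ZT12 replicate 2, ZT20 replicates 2 and 3 and all 4 of ZT24 (adjusted p from 0.0505 to 0.0906). The DRF ZT24 mice had 111, 104, 99.5 and 99.9 TPM and the DRF ZT0 mice 78.5, 83.3, 82.3 and 103 TPM. These are the same clock time 1 day apart, and the log2 difference of 0.26 ± 0.10 did not pass the test. Between ZT24 and ZT0, 0.605% of genes were called under NRF and 0% under DRF, and no member in either. At an unadjusted p under 0.05 there were 4.09% of genes and 2 members, Slc9a3 and Wnk4, under DRF and 8% of genes and no member under NRF.

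Because the regimens cross food with light at ZT4, ZT8, ZT16 and ZT20, the hours of darkness and the hours of feeding can be compared separately. Darkness fell at the same clock times in both regimens, so darkness and clock time cannot be told apart. Slc9a3 was lower in the dark by 0.35 ± 0.05 in log2, or 21.3% (limma adjusted p = 7.3e-07), and between fed and fasted hours it differed by -0.05 ± 0.05 (95% interval -0.16 to 0.05, limma adjusted p = 0.44). Its mean levels at ZT16 and ZT4 were 99.5 and 97.7 TPM under NRF, and 101 and 98.7 TPM under DRF. At ZT20 and ZT8 they were 78.9 and 137 TPM under NRF, and 74.5 and 115 TPM under DRF. The lower Slc9a3 level in the dark thus came from ZT20 against ZT8. Between dark and light 34.7% of all genes were called, 13.5% higher and 21.2% lower in the dark, and of the members Slc9a3 was the 1 called. The share of higher genes among those called was 39.0% with TPM and between 48.5% and 49.9% with the other scalings, under which the Slc9a3 difference was -0.34 ± 0.05 (CPM), -0.33 ± 0.05 (median of ratios) and -0.33 ± 0.05 (deposited values). Of the 7 proximal tubule markers 1 was higher in the dark, Lrp2 by 0.17 ± 0.06, and none was lower, and with the medulla-against-proximal score in the model the Slc9a3 difference was -0.34 ± 0.05 (limma adjusted p = 4.8e-08).

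Stk39 was higher in the dark by 0.14 ± 0.07, which did not pass with TPM (limma adjusted p = 0.13). It passed with median-of-ratios scaling (0.16, adjusted p = 0.043), CPM (0.16, adjusted p = 0.038) and the deposited values (0.16, adjusted p = 0.034). It also passed with the score as covariate (0.15, adjusted p = 0.00063) and without NRF ZT16 replicate 1 (adjusted p = 0.042). Slc12a1 differed by 0.16 ± 0.15, with an interval from -0.13 to 0.46 that does not limit its sign. For Wnk1 the difference was 0.11 ± 0.06, and for the other 5 genes it lay between -0.06 and 0.03. Of the 4 distal convoluted tubule markers all were higher in the dark, while Slc12a3, expressed in the same segment, differed by -0.06 ± 0.07.

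Between fed and fasted hours 37.2% of all genes were called, 16.4% higher and 20.8% lower when fed, and none of the 9 members. The members' differences ranged from -0.19 ± 0.15 for Slc12a1 to 0.10 ± 0.06 for Wnk1, and limma's unadjusted p was under 0.05 in none of them, where it was in 45.7% of all genes. With the medulla-against-proximal score Slc12a1 was lower in fed hours (-0.24, limma adjusted p = 0.018). Of all called genes, 44.1% were higher in fed hours with TPM and between 51.4% and 53.5% with the other scalings.

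**Figure D3:**
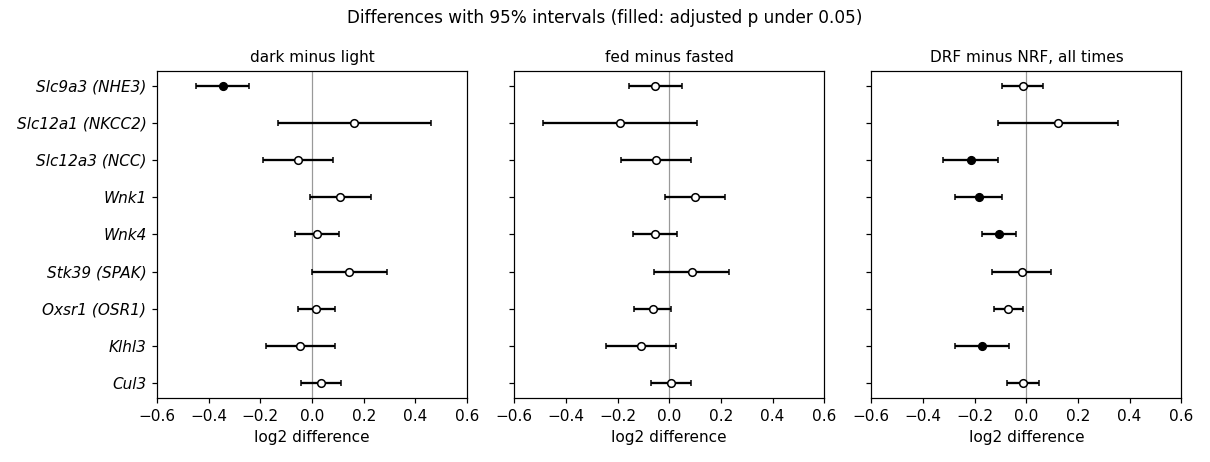
Log2 differences of the 9 genes (points) with 95% intervals (bars) for dark minus light, fed minus fasted and DRF minus NRF over all times. Filled points passed an adjusted p of 0.05: Slc9a3 at -0.35 in the first panel, no gene in the second, and Slc12a3, Wnk1, Wnk4 and Klhl3 between -0.22 and -0.11 in the third.

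Averaged over clock time, 4 members were lower under DRF than under NRF: Slc12a3, the carrier of the distal convoluted tubule, and Wnk1, Wnk4 and Klhl3 of its control pathway. Over all genes 12.4% were called, 2.93% higher and 9.52% lower under DRF. Slc12a3 was lower by 0.22 ± 0.05 in log2, or 13.9% (limma adjusted p = 0.0053), with regimen means over libraries of 338 and 298 TPM under NRF and DRF. Wnk1 was lower by 0.18 ± 0.05 (limma adjusted p = 0.0058), Klhl3 by 0.17 ± 0.05 (limma adjusted p = 0.028) and Wnk4 by 0.11 ± 0.03 (limma adjusted p = 0.032). The other 5 did not pass: Oxsr1 differed by -0.07 ± 0.03, Stk39 by -0.02 ± 0.06, Slc9a3 by -0.01 ± 0.04, Cul3 by -0.01 ± 0.03 and Slc12a1 by 0.12 ± 0.12. The 95% intervals of Slc9a3 (-0.09 to 0.07) and Cul3 (-0.07 to 0.05) leave room for little difference, and that of Slc12a1 (-0.11 to 0.36) does not.

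How many of these 4 passed depended on the scaling of libraries. With TPM the median of all genes was -0.03, and 23.5% of called genes were higher under DRF, against 47.2% with median of ratios, 53.2% with CPM and 48.4% with the deposited values. Slc12a3 and Wnk1 passed with median of ratios (-0.19 and -0.15, limma adjusted p = 0.044 and 0.032). With CPM, Wnk1 passed (adjusted p = 0.044) and Slc12a3 did not (-0.18, adjusted p = 0.057). With the deposited values neither passed (adjusted p = 0.095 for Wnk1 and 0.088 for Slc12a3). Wnk4 and Klhl3 passed with TPM alone, their values with median of ratios being -0.08 and -0.14 (limma adjusted p = 0.16 and 0.088). All 4 differences were negative under each scaling, and Slc12a3 and Wnk1 kept their calls without any single library (adjusted p at most 0.012). With the medulla-against-proximal score in the model all 4 passed, with adjusted p from 0.0010 for Slc12a3 to 0.026 for Klhl3. These genes also moved with the score within groups. The slope, in log2 per unit of score, was -0.23 ± 0.04 for Slc12a3 and -0.16 ± 0.04 for Klhl3. For Wnk1 it was -0.13 ± 0.04 and for Wnk4 0.07 ± 0.03. The within-group SD of Slc12a3 fell from 0.20 to 0.14 with the score. Calls for Klhl3 were lost without DRF ZT16 replicate 4, NRF ZT4 replicate 1 or NRF ZT20 replicate 2 (adjusted p from 0.051 to 0.053), and for Wnk4 without DRF ZT8 replicate 3, DRF ZT20 replicate 1, NRF ZT4 replicate 3, NRF ZT8 replicate 1 or NRF ZT20 replicate 1 (adjusted p from 0.051 to 0.056). Without ZT0, Klhl3 (adjusted p = 0.055) and Wnk4 (adjusted p = 0.11) did not pass.

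Among the distal convoluted tubule markers, Trpm6 was lower under DRF by 0.16 ± 0.05 (limma adjusted p = 0.021), and Calb1 (0.05 ± 0.06), Pvalb (-0.10 ± 0.07) and Slc8a1 (-0.11 ± 0.06) did not pass. The summed level of the 4 had a median of 1149 TPM under NRF and 956 TPM under DRF. The part of the segment's share of RNA in the Slc12a3 difference was not tested.

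**Figure D4:**
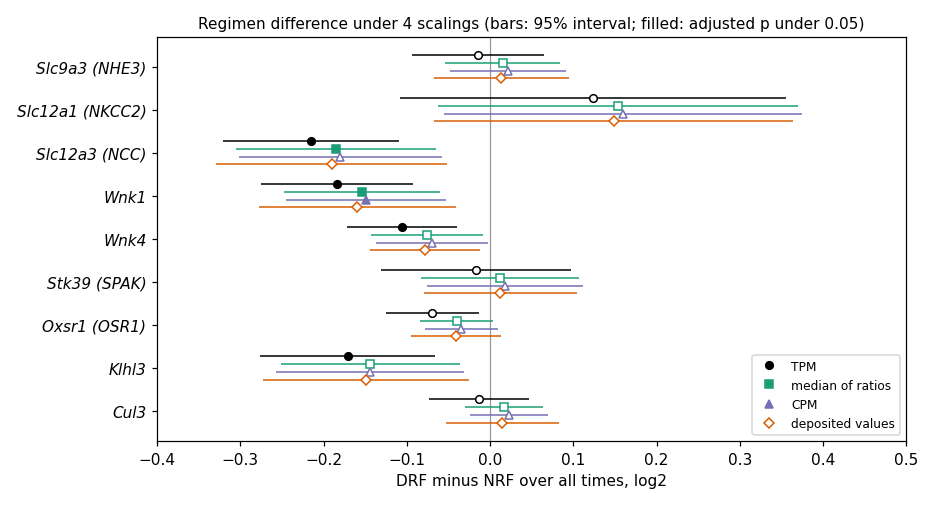
DRF minus NRF over all times in log2 (horizontal axis) for the 9 genes under TPM, median-of-ratios, CPM and deposited values, with 95% intervals (bars) and filled points where the adjusted p was under 0.05. Slc12a3, Wnk1, Wnk4 and Klhl3 lie left of 0 under each scaling, and Wnk4 and Klhl3 are filled for TPM alone.

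By time point, 7 of the 63 member-by-time differences between regimens were called, where 19% were called over all genes and times and 58% of genes were called at 1 or more times. All 7 were lower under DRF. At ZT4, where 30.8% of genes were called, 9.34% higher and 21.4% lower, they were Wnk4, Slc12a3 and Klhl3. Wnk4 was 246, 261, 268 and 222 TPM under NRF and 196, 193, 187 and 207 TPM under DRF. The groups did not overlap, as for 19.9% of all genes at this time, and the log2 difference of -0.35 ± 0.09 (limma adjusted p = 0.0019) passed under every scaling and without any single library (adjusted p at most 0.012). It did not pass in every case where a replicate number was left out of all groups.

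Slc12a3 at ZT4 was 463, 292, 359 and 314 TPM under NRF and 291, 293, 219 and 242 TPM under DRF. The groups touched, since NRF replicate 2 lay between the 2 highest DRF mice. The difference was -0.44 ± 0.14 (limma adjusted p = 0.013), and it was lost without NRF ZT4 replicate 1 (adjusted p = 0.11), without DRF ZT4 replicate 3 (adjusted p = 0.069) and with the other scalings (-0.35, adjusted p = 0.086 with median of ratios). The medulla-against-proximal score of NRF ZT4 replicate 1 was -4.07, within a range from -4.24 to -1.73 over all libraries. Its part in the Slc12a3 level of that library was not tested. Klhl3 at ZT4 was 15.99, 8.02, 12.6 and 10.9 TPM under NRF against 9.11, 9.17, 8.08 and 8.75 TPM under DRF. NRF ZT4 replicate 2 lay below all DRF mice. Its difference of -0.36 ± 0.14 (limma adjusted p = 0.040) was lost without any one of the 4 DRF mice or NRF replicates 1, 3 and 4 of that time (adjusted p from 0.052 to 0.26), and with the other scalings (adjusted p = 0.13 with median of ratios, 0.14 with CPM and 0.16 with the deposited values).

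At ZT12, where 21.3% of genes were called, 8.12% higher and 13.1% lower, Slc12a3 was 359, 411, 437 and 354 TPM under NRF and 293, 294, 261 and 325 TPM under DRF. The groups did not overlap, as for 23.5% of genes at ZT12, and the difference was -0.41 ± 0.14 (limma adjusted p = 0.027). It was lost without DRF ZT12 replicate 3 or NRF ZT12 replicate 2 or 3 (adjusted p from 0.071 to 0.096) and with the other scalings (adjusted p = 0.068 with median of ratios). Klhl3 at ZT12 did not overlap either, at 13.9, 14.04, 12.03 and 10.7 TPM under NRF and 8.53, 10.1, 9.45 and 10.2 TPM under DRF, and stood at the threshold (-0.37 ± 0.14, limma adjusted p = 0.051). The lowest group means of Slc12a3, Klhl3 and Wnk4 were all at DRF ZT4. At ZT4 the median DRF minus NRF difference of all genes was -0.08 with TPM.

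Wnk1 was called at ZT0, as were 20.2% of genes (8.37% higher and 11.8% lower), and at ZT20, as were 18.9% (10.6% higher and 8.27% lower). At ZT0 it was 143, 123, 131 and 118 TPM under NRF and 93.7, 129, 90.2 and 84.2 TPM under DRF. A single DRF mouse, replicate 2, stood inside the NRF range. The difference was -0.39 ± 0.12 (limma adjusted p = 0.015), lost without DRF ZT0 replicate 3 or 4 or NRF ZT0 replicate 1 (adjusted p from 0.056 to 0.065). At ZT20 it was 135, 153, 108 and 108 TPM under NRF and 92.6, 108, 94.1 and 93.0 TPM under DRF, and the highest DRF mouse stood among the lower NRF mice. No member was without overlap at ZT20, where 19.7% of genes were. The Wnk1 difference at ZT20 of -0.36 ± 0.12 (limma adjusted p = 0.027) was lost without NRF ZT20 replicate 1 or 2 or DRF ZT20 replicate 1, 3 or 4 (adjusted p from 0.060 to 0.15). With the deposited values neither passed (adjusted p = 0.080 at ZT0 and 0.051 at ZT20).

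Oxsr1 at ZT8 was 48.0, 50.4, 44.3 and 39.2 TPM under NRF and 38.4, 38.1, 38.8 and 38.6 TPM under DRF. All DRF mice lay below the lowest NRF mouse, as for 21.9% of genes at ZT8, and the DRF mice were closer together than in any other group of this gene. The difference of -0.23 ± 0.07 (limma adjusted p = 0.023), at a time when 17% of genes were called (7.98% higher and 9.03% lower), was lost without DRF ZT8 replicate 2 or NRF ZT8 replicate 1 or 2 (adjusted p from 0.052 to 0.11). At ZT0 Oxsr1 also did not overlap, at 46.0, 43.1, 44.4 and 44.9 TPM under NRF and 39.3, 40.5, 38.9 and 41.0 TPM under DRF, as for 21% of genes, and the difference of -0.16 ± 0.07 did not pass (limma adjusted p = 0.13).

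Slc9a3 did not overlap between regimens at ZT8 and ZT24, as for 21.9% and 22% of genes. At ZT8 the DRF mice had 110, 123, 102 and 125 TPM, below the 4 NRF mice given above, and the difference was -0.26 ± 0.10 (limma adjusted p = 0.080). At ZT24 the NRF mice had 83.6, 80.003, 90.3 and 94.4 TPM, below all DRF mice, and the difference was 0.25 ± 0.10 (limma adjusted p = 0.098). Both passed without NRF ZT16 replicate 1 (adjusted p = 0.036 and 0.046) and with the score as covariate (adjusted p = 0.016 and 0.012), and the ZT24 difference also passed with median of ratios (adjusted p = 0.040) and CPM (adjusted p = 0.043). At ZT16, where 8.73% of genes were called (2.44% higher and 6.29% lower) and 12.5% did not overlap, and at ZT24, where 15.9% were called (7.38% higher and 8.55% lower), no member passed. At an unadjusted p under 0.05, no member passed at ZT16, where 23.7% of genes did, and Slc9a3 alone passed at ZT24, where 27.4% did.

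Of the genes known to act on these carriers, 8 of the 26 tested differed between fed and fasted hours, where 37.2% of all genes and no member did. Of the 29 regulators listed 26 were tested. A 24-h rhythm was called in 14 of the 26 under NRF (53% of all genes) and in 7 under DRF (36.4% of all genes), or 10 to 11 with the other scalings, and a differential rhythm in 11 (46.4% of all genes). Their median amplitude was 0.11 under NRF and 0.07 under DRF, that of all genes 0.13 and 0.11. Under NRF the largest amplitudes were those of Sgk1, the aldosterone-induced kinase (0.73 ± 0.15), Slc9a3r2, which encodes the NHE3 scaffold NHERF2 (0.35 ± 0.05), Klhl2, a relative of KLHL3 that also targets WNK kinases (0.27 ± 0.06), and Chp1, a calcineurin-like partner of sodium-proton exchangers (0.25 ± 0.03). Under DRF they were those of Sgk1 (0.83 ± 0.18), Slc9a3r2 (0.29 ± 0.04), Slc9a3r1, which encodes the scaffold NHERF1 (0.23 ± 0.04), and Klhl2 (0.16 ± 0.04).

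The NRF peak of Slc9a3r2 fell at 18.2 ± 0.48 h and its DRF peak at 10.2 ± 0.54 h. It thus shifted by -8.02 ± 0.72 h (95% interval -9.43 to -6.60 h), where the interval for Slc9a3 was -1.53 to 1.93 h. Slc9a3r1 shifted by -3.45 ± 1.26 h. The differential rhythm was largest for Slc9a3r2 (0.55 ± 0.06, limma adjusted p = 5.1e-09), Kcnj1, the ROMK potassium channel of the thick ascending limb (0.32 ± 0.07), Klhl2 (0.29 ± 0.07) and Chp1 (0.28 ± 0.05).

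Between dark and light 9 of the 26 regulators were called, 6 higher and 3 lower in the dark (9 and 2 with median of ratios), where 34.7% of all genes were called, 13.5% higher and 21.2% lower. The largest differences were those of Sgk1 (0.97 ± 0.18), the thick ascending limb protein gene Umod (0.30 ± 0.11), Klhl2 (0.26 ± 0.07) and Slc9a3r2 (0.19 ± 0.05). Between fed and fasted hours the 8 called were 5 higher and 3 lower (7 and 3 with median of ratios), where 16.4% of all genes were higher and 20.8% lower, and they were led by Slc9a3r2 (0.41 ± 0.05, limma adjusted p = 2.8e-09), the mineralocorticoid receptor gene Nr3c2 (-0.21 ± 0.07), Klhl2 (0.20 ± 0.07) and Kcnj1 (0.15 ± 0.05). Over clock time 5 of the 26 differed between regimens, where 12.4% of all genes did, 3 higher and 2 lower under DRF: Sgk1 (0.46 ± 0.14), Slc9a3r2 (0.14 ± 0.04) and Nedd8 (0.11 ± 0.04), named after its values were seen, were higher, and Nr3c2 (-0.18 ± 0.05) and Hsd11b2 (-0.18 ± 0.03), the enzyme that keeps glucocorticoids from that receptor, were lower. The genes named here kept these calls under the other scalings, except Nr3c2 over clock time with the deposited values (adjusted p = 0.054). A component of 12 h under DRF was called in 9 of the 26 regulators and in 30.8% of all genes.

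Of the 14 related exchangers and cotransporters, 13 were tested, and their median DRF minus NRF difference over clock time was -0.07, where that of all genes was -0.03. Under NRF 6 of the 13 had a 24-h rhythm (53% of all genes), under DRF 5 (36.4%), and 3 had a differential rhythm (46.4%), or 5 under each other scaling. In the dark, where 21.2% of all genes were lower, Slc12a9 (-0.29 ± 0.03) and Slc12a7, the cotransporter KCC4 (-0.28 ± 0.04), were lower, and none was higher with TPM, where median of ratios called 2 higher and 3 lower. In fed hours, where 37.2% of all genes were called, 2 were higher, among them Slc9a8 (0.35 ± 0.14), and 2 lower, among them Slc12a9 (-0.09 ± 0.03), which was called with TPM alone. Over clock time 3 were lower under DRF, as were 9.52% of all genes, among them Slc9a7 (-0.14 ± 0.04) and Slc12a7 (-0.12 ± 0.03), the latter lost with the other scalings, and median of ratios and CPM each called 2 lower and 1 higher.

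The genes whose 14 group means ran most alike to each member's are given as a description, with Pearson's r of log2(TPM + 1) over the groups, which share their libraries and scaling with the member. For Slc9a3 they were Prob1 (r = 0.92), Prr15l (r = 0.89) and Foxred1 (r = 0.89). For Slc12a1 they were Pla1a (r = 0.95), Pcsk6 (r = 0.93) and Wfdc15b (r = 0.92), and for Slc12a3 Man2b2 (r = 0.91), Cadps2 (r = 0.89) and Ptprf (r = 0.86). Stk39 ran closest to Atg9a (r = 0.93), Wnk1 to Iqsec1 (r = 0.91), Wnk4 to Tom1l2 (r = 0.82), Oxsr1 to Utp15 (r = 0.86), Klhl3 to Lhx1 (r = 0.89) and Cul3 to Fastkd1 (r = 0.93). Among the members themselves the closest profiles were those of Slc12a3 and Klhl3 (r = 0.81) and of Slc12a1 and Stk39 (r = 0.69).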

How the data were processed

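The authors deposited 1 table of 17027 genes and 56 libraries that they named TPM, whose values are a score: log2(CPM + 1) divided by gene length and scaled to a nearly constant sum (999145 to 999753), on effective libraries of 24.8 to 28.9 M reads. The submitters' processing notes name HISAT2, Bowtie2, RSEM, mm10 and GRCm38.p6, without versions. Reads were recovered as whole numbers (within 0.1 read) for 88.9% of genes, 14245 at their GENCODE M21 exon length, all members among them, and 900 at a length found by search, and 99.4% of their values came out whole. Genes with fractional reads (1689, Dbp and Nr1d1 among them) or without a length (193) were left out, also from the TPM total.

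limma 3.58.1 in R 4.3.3 was run with a mean-variance trend on log2(TPM + 1), for genes whose TPM averaged 1 or more over the libraries. Rhythms were cosines of 24 h (ZT24 at the phase of ZT0) in the 28 libraries of a regimen, and differential rhythm was the interaction with regimen over all 56. A 12-h pair was tested beside the 24-h pair. Other contrasts came from 1 fit of 14 group means. Dark minus light and fed minus fasted used ZT4, ZT8, ZT16 and ZT20, and ZT0 and ZT24 shared 1 weight in the mean over clock time. The test was checked on simulated data in which genes varied independently of one another. That check does not cover shared variation, such as that with the medulla-against-proximal score.

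The members, the marker, regulator and relative lists and the tests were chosen with earlier results of these data known. All members are named. From the regulators and relatives at most the 4 called genes with the largest differences are named per comparison (some relatives that the rule selects are not reported here), and for each member the 3 most alike genes whose TPM averaged 10 or more. The medulla-against-proximal score is the mean log2(TPM + 1) of collecting duct and inner medulla markers minus that of proximal tubule markers. Intervals are 95% normal intervals. An NRF ZT24 column carried a replicate number not among the labels and was used as the NRF ZT24 library with no number. Alternatives were other scalings, filters and pseudocounts, a replicate block, left-out libraries or times, and the score as covariate.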

Additional observations from a re-analysis of the deposited data

Results flagged for a closer look

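In 9 of the 126 groups of 4 mice (9 genes in 14 groups) 1 library stood apart from the other 3 by Dixon's test of the gap over the range at the 95% level. Chance gives about 1 in 20 such groups. Slc12a1 was 1549 TPM in DRF ZT0 replicate 4 (651 to 783 TPM in the others), 2019 TPM in NRF ZT0 replicate 4 (836 to 959 TPM) and 629.4 TPM in NRF ZT4 replicate 1 (1051 to 1069 TPM). Stk39 was 47.36 TPM in DRF ZT0 replicate 4 (34.4 to 36 TPM), the mouse with high Slc12a1. The medulla-against-proximal score of these libraries was -2.50 in DRF ZT0 replicate 4, -2.02 in NRF ZT0 replicate 4 and -4.07 in NRF ZT4 replicate 1, where the median was -2.69, and its part in these values was not tested. Wnk1 was 107.6 TPM in DRF ZT20 replicate 2 (92.6 to 94.1 TPM), and Wnk4 was 258.1 TPM in DRF ZT20 replicate 4 (216 to 221 TPM). Cul3 was 144.7 TPM in DRF ZT24 replicate 4 (120 to 121 TPM), 105.2 TPM in NRF ZT4 replicate 2 (133 to 139 TPM) and 154.3 TPM in NRF ZT12 replicate 1 (130 to 132 TPM).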

How the results depend on the processing

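Of the 17 member differences called, 5 kept their call in every alternative that left out no replicate: the Slc9a3 rhythm under NRF and DRF and its dark minus light difference, Wnk4 at ZT4 and Oxsr1 at ZT8. Leaving a replicate number out of every group gave between 0 and 5 time point calls, so Wnk4 and Oxsr1 each lost theirs at least once there. No called difference changed sign in any of the 78 settings. For the rhythms and the 12-h component this was fixed in advance, since an amplitude cannot be negative. Members with an NRF rhythm numbered 3 instead of 1 with the score as covariate. Under DRF 3 became 5 with median of ratios, 6 with CPM, 5 with the deposited values, 5 without a cosine and 1 without ZT0 or without ZT16. Differential rhythms went from 0 to 1 with median of ratios, 2 with CPM, 1 with the deposited values, 2 without ZT4, 1 without ZT16 or ZT20 and 2 with the score. Dark minus light rose from 1 to 2 with each other scaling and with the score, and fed minus fasted from 0 to 1 with the score. Over clock time 4 became 2 with median of ratios, 1 with CPM, 0 with the deposited values and 2 without ZT0. Time point differences fell from 7 to 2 with the deposited values. The 12-h count under DRF was 0 without ZT24. The cause of these changes was not tested.

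Leaving out replicates gave 1 to 2 NRF rhythms, 1 to 5 DRF rhythms, 0 to 1 differential rhythms, 1 to 2 dark minus light, 0 to 5 clock time and 0 to 9 time point differences, and 0 to 2 members with a 12-h component under DRF. Same-numbered mice did not deviate together (mean correlation 0.0104, and 12 of 55 libraries were closest to their own number), so the numbers do not pair them. With a replicate block 2 members instead of 1 had a 12-h component under DRF, and no other count moved by over 1.5 times. No member had fewer than 411 reads in a library. With 4 mice per group, the intervals for Slc12a1 allow differences of either sign in each of the contrasts between dark and light, fed and fasted hours and the regimens.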

Other observations

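By time point, 6 of the 26 regulators differed between regimens at ZT4 (30.8% of all genes), 5 at ZT0 (20.2%) and 5 at ZT12 (21.3%), 4 at ZT20 (18.9%) and 4 at ZT24 (15.9%), 1 at ZT8 (17%) and none at ZT16 (8.73%). With median of ratios the count was 8 at ZT0 and at ZT4, 4 at ZT12 and 6 at ZT20. At ZT4 the aldosterone-induced kinase gene Sgk1 was higher under DRF by 1.17 ± 0.35 in log2 (limma adjusted p = 0.0090), the NHE3 scaffold gene Slc9a3r2 was higher by 0.61 ± 0.10 (limma adjusted p = 3.1e-06) and the mineralocorticoid receptor gene Nr3c2 differed by -0.62 ± 0.14 (limma adjusted p = 0.00054). At ZT12 Sgk1 was higher under DRF by 1.36 ± 0.35, Slc9a3r2 by 0.40 ± 0.10 and the ROMK gene Kcnj1 by 0.32 ± 0.11. At ZT20 Hsd11b2 (-0.38 ± 0.08) and Kcnj1 (-0.32 ± 0.11) were lower under DRF. These calls held with the other scalings.

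The distal convoluted tubule markers, higher in the dark in 4 of 4, were led by the sodium-calcium exchanger gene Slc8a1 (0.40 ± 0.08) and the calcium-binding protein gene Calb1 (0.31 ± 0.08), followed by the magnesium channel gene Trpm6 (0.28 ± 0.06) and Pvalb (0.26 ± 0.08). Over clock time and with TPM, lower under DRF were 0 of 7 proximal tubule, 1 of 7 thick ascending limb, 2 of 7 collecting duct and inner medulla, 1 of 3 podocyte and 2 of 3 immune markers tested, and none of these was higher. Of all genes 9.52% were lower and 2.93% higher. The share of higher genes among those called was 23.5% with TPM and between 47.2% and 53.2% with the other scalings. Of the adrenal (1 tested), adipose (4), liver (3) and blood (1) markers none was called over clock time.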
